A study of Zea mays with 6 samples.

Results

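The 5 maize genes described here, hsp18, hsp18f, hsp18a, hsp22 and hsp101, encode heat shock proteins. They were taken as every probe set whose annotated gene carries one of these names as symbol or synonym, which gave 5 probe sets, 1 for each gene, of 17734 on the array, or 5 of 1108 named genes. The genes were selected on their UCZ versus control difference in an earlier analysis of these same arrays, so that difference is given as a description without a test. The identifiers are gene 542576 for hsp18, 542723 for hsp18f, 542293 for hsp18a, 542602 for hsp22 and 541780 for hsp101. Gene 542576 also carries the name hsp26, and gene 542293 the name HSP18 in capitals, so the shared name does not make them 1 gene.

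The arrays measured RNA of the mesocotyl, the stem segment that carries the shoot of a grass seedling up through the soil. All plants were of the inbred line 3681-4, sown 20 cm deep, kept in darkness and harvested 10 days after sowing. The control group received neither agent, the GA3 group received the gibberellin GA3, and the UCZ group received UCZ, described by the series as an inhibitor of gibberellin synthesis. Each group had 2 arrays, called biological replicates by the labels, so 6 Affymetrix arrays were analysed and their number limits the precision of every value. The labels give no dose, solvent or timing of the treatments, and do not say how many plants went into an extract. No marker gene specific to the mesocotyl was available, so the tissue label was checked through other organs. All 14 leaf photosynthesis genes on a list of such genes passed the filter on low signals, and 3 of 14 kernel genes did. The 1 root gene, pht1, and the 2 pollen and anther genes, m19 and m21, passed too. These lists therefore do not settle the tissue label. In RNA from whole tissue, fewer cells of a type and less RNA per cell cannot be told apart.

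Heat shock proteins are chaperones, made in quantity when proteins begin to unfold, classically at high temperature, under the control of heat shock transcription factors. Small heat shock proteins, which share an alpha-crystallin domain, bind unfolding proteins without using ATP and keep them from clumping. HSP101 belongs to the Clp family, whose rings use ATP to pull proteins out of aggregates, with the help of HSP70. In maize, HSP22 is a small heat shock protein of mitochondria and HSP26 one of chloroplasts. Several of these genes are also switched on without heat, during seed and pollen development.

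Signals are the deposited intensities on a linear scale, and changes are differences of log2(signal + 16), which understates the change of dim probe sets. Signals of different probe sets depend on the probes and do not rank the genes by transcript number. The 5 genes were faint to moderate in control, at percentile 33.8 to 55 of all probe sets on the array, and none was near the top of the range.

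Among the small heat shock genes, hsp18 had a signal of 107.9 and 69.3 on the control arrays of replicates 1 and 2, 191.2 and 91.18 on the GA3 arrays and 1318 and 1003 on the UCZ arrays, and values below keep this order. Both UCZ arrays lay far above the other 4, while the control and GA3 arrays overlapped. The mean went from 88.58 ± 27.3 in control to 141.2 ± 70.7 in GA3 (SD, n = 2). Its log2 difference between UCZ and control was 3.50 (SE 0.33), or 11.3-fold, and the array pairs ranged from 9.3-fold to 19-fold in signal. On the UCZ arrays hsp18 stood at percentile 87.7 and 84.4, against 39.6 and 33.8 on the control arrays. Of all probe sets that passed the filter, it had the largest rise in UCZ over control, and without the filter it ranked 2.

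The gene hsp18f, another small heat shock gene, had signals of 81.36 and 69.82 on the control arrays, 161.2 and 83.2 on the GA3 arrays and 482.6 and 361.4 on the UCZ arrays. Both UCZ arrays were above all others, and the lower GA3 array was only just above the higher control array. The log2 difference between UCZ and control was 2.25 (SE 0.28), or 4.75-fold, the third highest of the probe sets kept. The array pairs ranged from 4.44-fold to 6.91-fold.

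The gene hsp18a had signals of 215 and 199.1 on the control arrays, 367.2 and 313.1 on the GA3 arrays and 457.8 and 359.1 on the UCZ arrays. Here all treated arrays lay above both controls, and the GA3 array of replicate 1 lay above the UCZ array of replicate 2. The UCZ difference of 0.92 (SE 0.17) was the smallest of the 5 genes, at 1.89-fold.

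The mitochondrial gene hsp22 had signals of 70.23 and 77.59 on the control arrays, 157.3 and 134.3 on the GA3 arrays and 233.1 and 207.1 on the UCZ arrays. The groups did not overlap, and they followed the order control, GA3, UCZ. The log2 difference between UCZ and control was 1.39 (SE 0.16), or 2.62-fold.

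The disaggregase gene hsp101 had signals of 255.3 and 253.6 on the control arrays, 257.2 and 421.9 on the GA3 arrays and 607.6 and 585.8 on the UCZ arrays. Control arrays and UCZ arrays each agreed closely, while the GA3 arrays were spread from the control level to well above it. The log2 difference between UCZ and control was 1.18 (SE 0.22), or 2.27-fold.

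**Figure D1:**
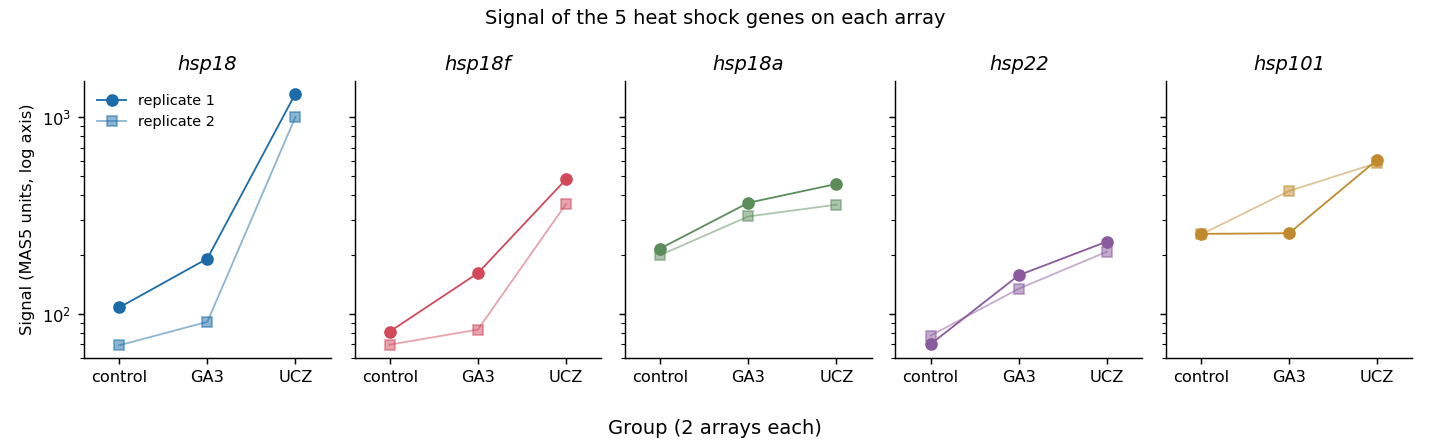
Signal of each gene (log axis, MAS5 units) by group, with 1 point for each array and lines joining arrays of the same replicate number. UCZ arrays of hsp18 reach 1318 and 1003 against 107.9 and 69.3 in control, and the GA3 arrays of hsp101 lie apart at 257.2 and 421.9.

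For 5 of 5 genes both UCZ arrays were above both control arrays, which held for 28.3% of all probe sets kept. The count repeats what chose the genes, and so does any gap in this difference between them and other genes. Within replicate 1 the log2 difference was 3.43 for hsp18, 2.36 for hsp18f, 1.04 for hsp18a, 1.53 for hsp22 and 1.20 for hsp101. Within replicate 2 it was 3.58, 2.14, 0.80, 1.25 and 1.16 in the same order. The smallest of the 5 differences were those of hsp101, 1.18, and hsp18a, 0.92. Of the other chaperone genes that passed the filter, each read by its brightest probe set, the largest were those of hsp70-5, 0.39, and hsp70-4, 0.33. A dimmer probe set of hsp70-5 read 0.45 and passed (limma adjusted p = 0.0259).

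The filter on low signals kept the brightest 60% of probe sets, ranked by their mean over the 6 arrays, and its lowest mean log2 level was 6.96. In control, 2 of the 5 genes reached that level, hsp18a and hsp101. The control means of hsp18, hsp18f and hsp22 were 6.68, 6.51 and 6.49, so their brighter treated arrays carried them past it, and all 5 reached it in GA3 and in UCZ.

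The poly-A control transcripts, bacterial RNAs added before labelling, were brighter on the UCZ than on the control arrays by log2 0.62 in replicate 1 and 0.67 in replicate 2. Scaling the arrays to them moved the median change of all probe sets between UCZ and control from −0.026 to −0.68. Relative to these added RNAs the UCZ differences were 2.86 for hsp18, 1.62 for hsp18f, 0.27 for hsp18a, 0.78 for hsp22 and 0.52 for hsp101. All 5 stayed above 0 here and under the other alternatives run, over which they ranged from 0.27 to 3.77. Several of these, such as the fits without the filter or with the replicate block, leave the difference itself unchanged. The genes were also picked on this difference, so its sign was partly fixed in advance. RNA integrity was read from the ratio of actin signal at the 3′ and 5′ ends of the transcript. It was higher in replicate 1 than in replicate 2 in each group, at 3.57 against 2.76 for control, 4.64 against 3.4 for GA3 and 4.14 against 3.11 for UCZ. Within each replicate the ratio was lowest in control and highest in GA3, so it also differed with the treatment. The summed signal of the 14 kernel genes was 426.4 and 435.5 on the control arrays, 520 and 516.6 on the GA3 arrays and 683.9 and 664.7 on the UCZ arrays. Of these 14, 1 was called higher in UCZ, betl4, and without it the sums were 335.5 and 375.9, 440.6 and 427.8, and 390.7 and 400 in the same order. The sums of the 14 leaf photosynthesis genes were 82640 and 84670 on the control arrays, 63330 and 68270 on those of GA3, then 81780 and 87950 with UCZ, and 2 of the 14 were called lower in GA3 than in control. Those of the 2 pollen and anther genes m19 and m21 were 1072 and 1052, 707.8 and 568.1, and 1144 and 1117, and neither gene was called. The part of these in the results was not tested.

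The GA3 comparison asked whether added gibberellin moved the same genes. It was not used to pick them, but it shares the control arrays with the comparison that was. Low control values that helped a gene to be picked thus also raise its GA3 difference. Signals in GA3 were above control for each gene on average, by log2 0.54 (SE 0.33) for hsp18, 0.54 (SE 0.28) for hsp18f, 0.67 (SE 0.17) for hsp18a, 0.85 (SE 0.16) for hsp22 and 0.36 (SE 0.22) for hsp101. None passed in the fit without the replicate number (0 of 5, against 1.32% of all probe sets, limma with Benjamini-Hochberg adjustment), with adjusted p = 0.0621 for hsp22 and 0.131 for hsp18a. The other 3 had adjusted p between 0.529 and 0.609. Before adjustment hsp22 and hsp18a were under 0.05 in limma, and 1282 of all probe sets were.

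With the replicate number as a block, which compares arrays of the same number, 3 genes passed as higher in GA3, against 3.09% of probe sets kept. These were hsp22 (limma adjusted p = 0.0041), hsp18a (adjusted p = 0.00532) and hsp18 (adjusted p = 0.0499, at the edge of the threshold). For hsp18f the adjusted p was 0.0766 and for hsp101 0.242. Since hsp18, hsp18f and hsp22 passed the filter through their treated arrays, the fit was repeated without it, an alternative added after seeing the data. With the block and no filter 2 genes passed as higher in GA3, against 1.27% of all 17621 probe sets, hsp18a (limma adjusted p = 0.0234) and hsp22 (0.0275). There hsp18 had adjusted p = 0.131, hsp18f 0.189 and hsp101 0.389. With neither block nor filter none passed (limma adjusted p = 0.108 for hsp22, 0.182 for hsp18a, 0.693 for hsp18, 0.621 for hsp18f and 0.681 for hsp101). The rise of hsp22 was 2.24-fold in signal within replicate 1 and 1.73-fold within replicate 2, and that of hsp18a 1.71-fold and 1.57-fold. For hsp18 the ratios were 1.77 and 1.32, for hsp18f 1.98 and 1.19, and for hsp101 1.01 and 1.66. The excess of hsp101 thus lay in the GA3 array of replicate 2, and the 95% interval of its log2 difference, without the block, ran from −0.15 to 0.86. For hsp18 and hsp18f the intervals, −0.23 to 1.30 and −0.12 to 1.19, also include 0, and with the block they ran from 0.20 to 0.87 and from 0.17 to 0.91.

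For 4 of 5 genes both GA3 arrays were above both control arrays, against 21.6% of all probe sets kept. The exception was hsp18, and for hsp18f (83.2 against 81.36) and hsp101 (257.2 against 255.3) the margin was small. The median log2 difference of the 5 was 0.54, against 0.018 over all probe sets kept. The control arrays had a part in picking the genes, so neither 0.018 nor 21.6% is a matched background. The same holds for the shares of probe sets called in GA3 versus control, 1.32%, 3.09% and 1.27%, given above. Without 1 array the median of the 5 lay between 0.445 and 0.948, highest without GA3 replicate 2. Under each alternative run the 5 differences stayed above 0, between 0.015 and 1.01. Several alternatives, such as the block or no filter, leave the differences themselves unchanged.

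**Figure D2:**
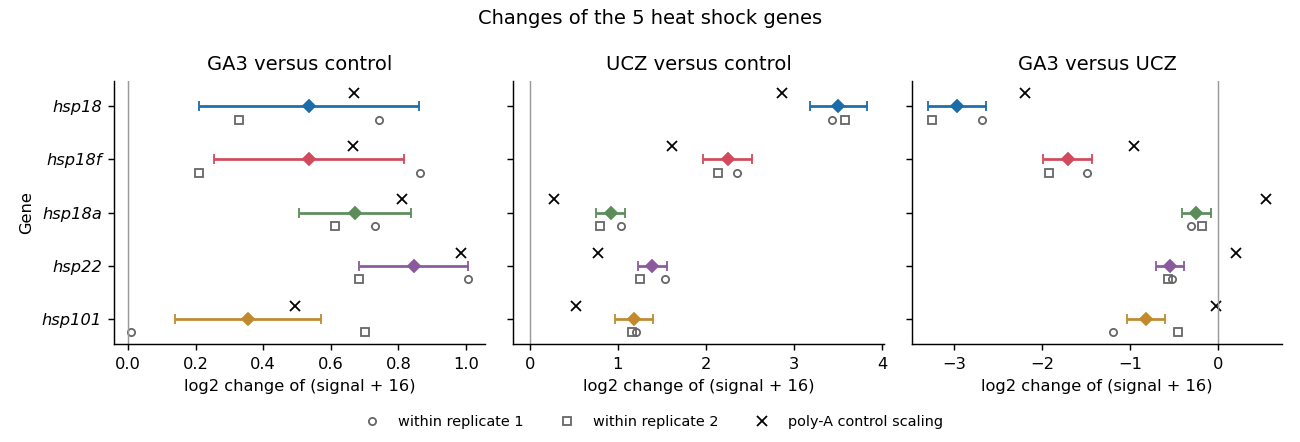
Log2 change of each gene in the 3 comparisons: diamonds with bars are the fitted value ± SE, open symbols the difference within each replicate number, and crosses the value after scaling to the poly-A controls. For GA3 versus control the values lie between 0.36 and 0.85, and for GA3 versus UCZ the crosses of hsp18a and hsp22 lie above 0, at 0.54 and 0.21.

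Set side by side, GA3 and UCZ differed from control by 0.54 and 3.50 for hsp18 and by 0.54 and 2.25 for hsp18f. For hsp22 the values were 0.85 and 1.39, for hsp18a 0.67 and 0.92, and for hsp101 0.36 and 1.18. These comparisons share the control arrays. Directly against UCZ, the GA3 signals were lower by log2 values of −2.97 for hsp18, −1.71 for hsp18f, −0.82 for hsp101, −0.55 for hsp22 and −0.25 for hsp18a. This comparison shares the UCZ arrays with the one that chose the genes and was not tested for them. The order of the group means was control, GA3, UCZ for each gene. Both UCZ arrays were above both GA3 arrays for 4 of 5 genes, against 25.2% of probe sets, the exception being hsp18a. Under poly-A scaling the difference from UCZ turned positive for hsp18a (0.54) and hsp22 (0.21) and was −0.029 for hsp101, while hsp18 and hsp18f stayed lower in GA3, at −2.19 and −0.95. Of the neighbours in that order, control and GA3 therefore overlapped for hsp18, and GA3 and UCZ overlapped for hsp18a and changed places for hsp18a and hsp22 under that scaling.

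Over the 5 genes, the control level and the size of the UCZ difference were loosely and inversely related. The 3 genes with mean control levels between 6.49 and 6.68 had differences of 3.50, 2.25 and 1.39, and hsp18a and hsp101, at 7.80 and 8.08, had 0.92 and 1.18. Pearson's r over the 5 genes was −0.61 and Spearman's rho −0.5, given as a description, since both measures share the control arrays, levels of different probe sets do not rank genes, and 5 points carry little weight. With the control level from replicate 1 and the difference from replicate 2, which share no array, r was −0.43, and with the numbers exchanged −0.75. Over all 17621 probe sets, with no filter, the same relation had r = −0.052. Among 1735 probe sets with a control level from 6 to 7, the bin that holds hsp18, hsp18f and hsp22, the median UCZ difference was −0.066 and the 95th percentile 0.655. In the bins of hsp18a and hsp101 the 95th percentile was 0.63 and 0.567. The 5 genes were picked on the UCZ difference, so their place above these percentiles repeats the selection.

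**Figure D3:**
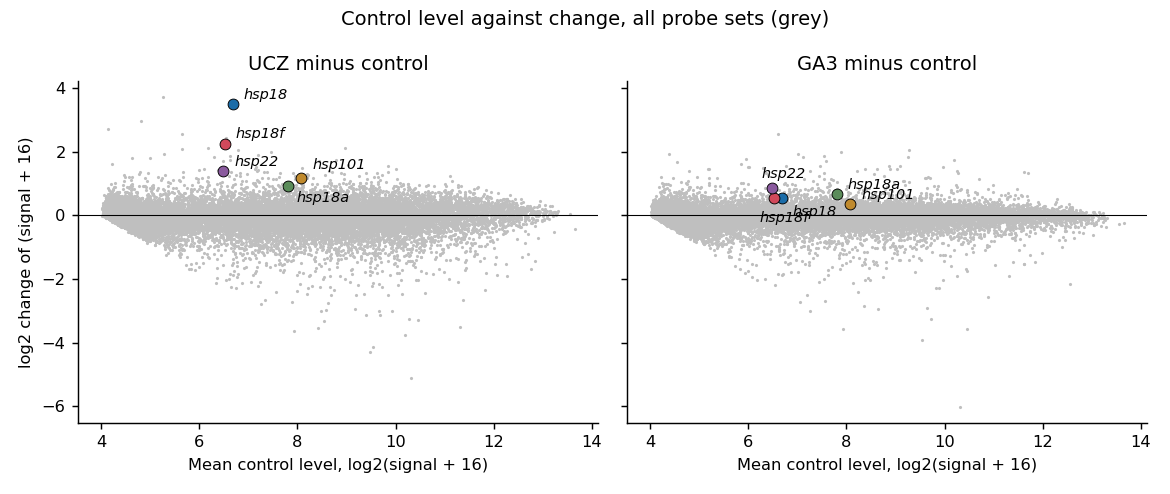
Mean control level against the log2 change in UCZ (left) and in GA3 (right), with all 17621 probe sets in grey and the 5 genes in colour. In UCZ hsp18 lies at 3.50 and hsp18f at 2.25 above control levels of 6.68 and 6.51, and in GA3 all 5 lie between 0.36 and 0.85.

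The replicate numbers were a further difference between the arrays, and one that had no part in picking the genes. The series describes independent experiments, and each group has a replicate 1 and a replicate 2. The gene hsp18 was lower in replicate 2 in every group, by log2 −0.54 in control, −0.95 in GA3 and −0.39 in UCZ. Fitted over the 3 groups, the difference of replicate 2 from replicate 1 was −0.63 (SE 0.13, limma adjusted p = 0.00888), the 1 gene of the 5 to pass, against 8.81% of probe sets kept. Without the filter or under poly-A scaling it missed the threshold (limma adjusted p = 0.0514 and 0.13). Without either GA3 array it missed the threshold too, with a difference of −0.46 whichever of them was left out. The gene hsp18f was also lower in replicate 2 in every group (−0.18, −0.84 and −0.40), with a fitted difference of −0.47 (SE 0.14, limma adjusted p = 0.0532). It passed with a robust variance prior (limma adjusted p = 0.0483). Without control replicate 1 or 2 its fitted difference was −0.62. That value is the same for both, since a control array left alone carries no replicate difference.

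For hsp18a the differences between replicates were −0.10 in control, −0.22 in GA3 and −0.34 in UCZ, and for hsp22 0.12, −0.21 and −0.16, neither called. Under poly-A scaling the fitted differences of both turned positive, at 0.16 and 0.28. The gene hsp101 was higher in replicate 2 in GA3, by 0.68, against −0.0091 in control and −0.051 in UCZ. Its fitted replicate difference of 0.21 turned to −0.030 without either GA3 array, and under poly-A scaling it was 0.59 (limma adjusted p = 0.00128).

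The spread between replicates was widest in GA3 for hsp18, hsp18f, hsp22 and hsp101, and widest in UCZ for hsp18a. The GA3 replicate difference of hsp18 was larger than that of 98.7% of probe sets kept, that of hsp18f larger than 98.3% and that of hsp101 larger than 96.8%. In control the corresponding shares were 94.8%, 55.9% and 3.04%, and in UCZ 85.7%, 86.9% and 15.9%. The replicate difference of hsp18 was thus also wide in control. The residual SD on the log2 scale was 0.47 for hsp18 and 0.39 for hsp18f, against a median of 0.15 over all probe sets kept. With the replicate number in the fit it was 0.21 and 0.24, against a median of 0.11. For hsp18a it was 0.17 without the number and 0.083 with it, for hsp22 0.12 and 0.12, and for hsp101 0.28 and 0.29. The residual SD was thus lower with the number in hsp18, hsp18f and hsp18a, and not in hsp22 or hsp101.

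**Figure D4:**
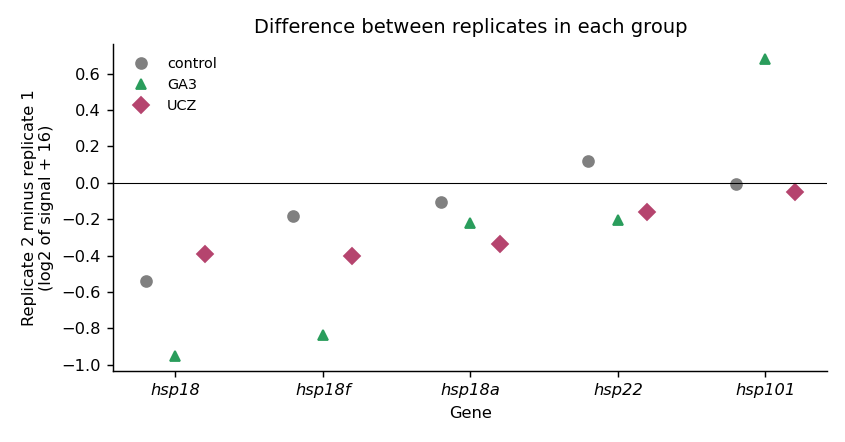
Replicate 2 minus replicate 1 on the log2 scale for each gene, 1 point for each group. All 3 points of hsp18, hsp18f and hsp18a lie below 0, and the GA3 point of hsp101 lies at 0.68.

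Across the 6 arrays hsp18 and hsp18f had nearly the same profile (r = 0.992), and so had hsp18a and hsp22 (r = 0.968). The other pairs had r between 0.734 and 0.901, lowest for hsp18a with hsp101. These values rest on 6 arrays that share the group differences used to pick the genes. Probe sequences were not used here, so binding of transcripts of 1 small heat shock gene to the probes of another was not tested.

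The annotation gave no gene for 16168 of 17621 probe sets, so a list made by name may miss heat shock and chaperone genes. Those found by name, beside the 5, were 21 genes with 34 probe sets, and 20 of them passed the filter by their brightest probe set. They comprised 11 protein disulfide isomerases, which form disulfide bonds in the endoplasmic reticulum, 4 genes of the HSP70 family and its endoplasmic reticulum form BiP, 2 chaperonins of the CPN60 type, calreticulin and calnexin, 1 heat shock factor gene, and hsp18c. In UCZ versus control 0 of the 20 passed, against 15.4% of probe sets kept, and the median log2 difference was −0.089, against −0.026 over all. With the replicate number as a block 4 passed, against 34.6% of probe sets kept. The HSP70 genes hsp70-5 and hsp70-4 were higher, by 0.39 and 0.33 (limma adjusted p = 0.00623 and 0.0158 with the replicate block). Their signals were 4962 ± 484 and 4330 ± 195 in UCZ, against 3789 ± 248 and 3440 ± 104 in control (SD, n = 2). The BiP gene bip1 and the isomerase gene pdi10 were lower, by −0.38 and −0.48 (limma adjusted p = 0.0107 and 0.0133 with the block). Under poly-A scaling 9 of the 20 were called lower, against 40.3% of probe sets kept, and none higher. With median centring 2, hsp70-4 and hsp70-5, were called higher, against 10.6%.

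In GA3 versus control 0 of the 20 passed without the block or with it, where 8.19% of probe sets kept did, and the differences ran from −0.45 for hsfb, the heat shock factor gene, to 0.31 for the isomerase gene PDIL5-1. In GA3 versus UCZ 0 of the 20 passed, against 13.9% of probe sets kept. With the block 4 were higher in GA3, against 17.0% of probe sets kept. They were bip1, pdi10, pdi11 and pdi5, by 0.40, 0.55, 0.41 and 0.42 (limma adjusted p between 0.00592 and 0.0391). The signal of hsfb was 287.7 ± 29 in control, 206.1 ± 4.67 in GA3 and 223 ± 27.8 in UCZ, and it was not called.

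The small heat shock gene hsp18c did not pass the filter. The brighter of its 2 probe sets had signals of 51.55 and 32.98 on the control arrays, 71.75 and 30.43 on the GA3 arrays and 85.66 and 62.67 on the UCZ arrays. The UCZ arrays were not separated from GA3, and the log2 difference from control was 0.64 (SE 0.34, limma adjusted p = 0.315 without the filter). The other probe set read 18.8 to 28.74 in control and 6.704 and 22.83 in UCZ.

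**Figure D5:**
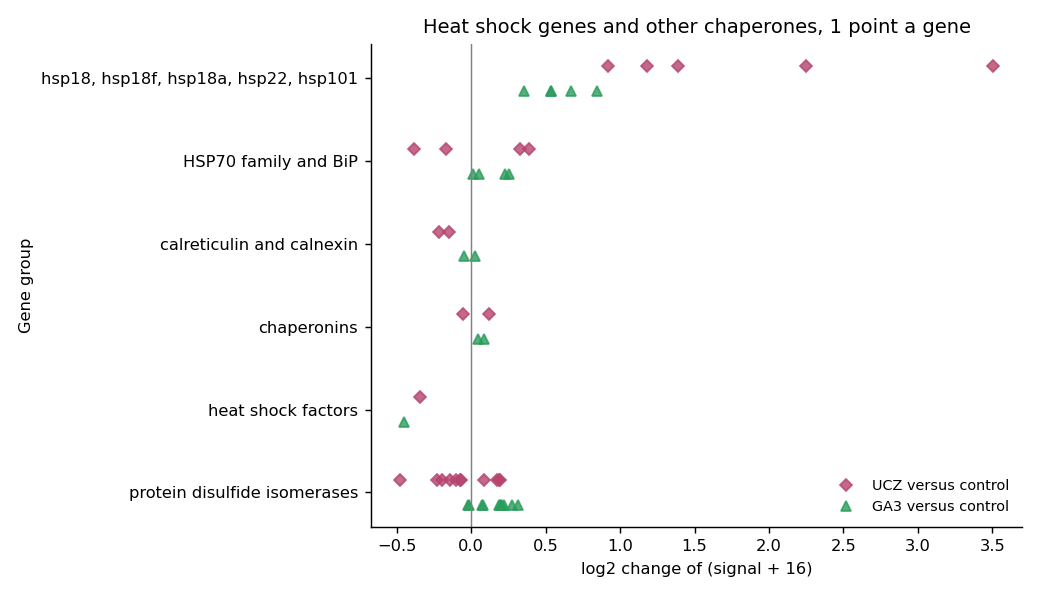
Log2 change of the 5 genes and of the 20 other chaperone genes kept, by family, with diamonds for UCZ and triangles for GA3, both versus control. The 5 genes span 0.92 to 3.50 in UCZ, and the other 20 span −0.48 to 0.39. The 5 were picked on this UCZ difference, so the gap repeats the selection. The gene hsp18c did not pass the filter and is not shown.

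Among 131 other named genes whose level varied by at least 1 on the log2 scale, the profiles most like the mean profile of the 5 over the 6 arrays were those of incw1, a cell wall invertase that splits sucrose outside the cell (r = 0.990), toc34B, of the protein import machinery of chloroplasts (0.956), prp2 (0.942) and TIDP3100 (0.936). Next came AGP2, of starch synthesis (0.929), betl4, whose name refers to a transfer layer of the kernel (0.925), GLN6, a glutamine synthetase (0.916), and SRP1D (0.880). The signal of incw1 was 157.2 and 151.2 on the control arrays, 204 and 212.1 on the GA3 arrays and 340 and 278.1 on the UCZ arrays. It follows the order control, GA3, UCZ without overlap, with differences from control of 0.40 in GA3 and 0.93 in UCZ. The most opposite profiles were those of AGA3b (−0.996), bk2, the brittle stalk gene of the secondary wall (−0.996), kinesin-1, a motor protein gene (−0.986), and f3h, of flavonoid synthesis (−0.982). The signal of bk2 was 748.3 and 737.4 on the control arrays, 496.6 and 585.5 on the GA3 arrays and 293.7 and 342.2 on the UCZ arrays, lower at each step of that order without overlap. Of 1472 probe sets that varied by at least 1, 37 had r above 0.95. They were 3 of the 5 heat shock genes, incw1, toc34B and 32 with no gene name. The mean profile was made from the 5 genes themselves, so their own likeness to it was partly fixed in advance.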

How the data were processed

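The authors deposited linear signal intensities, 1 value for each probe set on each array, made with GCOS and MAS5 per the submitters' processing notes, which name no version or setting here. The 2% trimmed mean was 500.1 to 500.2 on each array, so the deposited intensities share a scale. The 113 manufacturer control probe sets were left out. Gene names came from the platform annotation of 2007 through gene identifiers (1452 probe sets with 1 gene), updated with RefSeq synonyms (Zm-B73-REFERENCE-NAM-5.0).

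On log2(signal + 16), the brightest 60% of probe sets (10573) were fitted with limma 3.58.1 in R 4.3.3 (group means, eBayes with trend, all 6 arrays, 3 residual and 4.52 prior degrees of freedom), two-sided, with Benjamini-Hochberg adjustment over the probe sets kept and a threshold of 0.05. The replicate contrast added the replicate number to the group terms. The fit was tested on simulated data. The simulated arrays varied independently of each other, so that test does not cover the pairing of the real arrays. Deviations from group means correlated at 0.664, 0.724 and 0.755 between groups for arrays of the same number, and the series describes separate experiments. The numbers were therefore taken to pair the arrays. The fit of the group comparisons has no replicate term, so its calls and SEs ignore this pairing. Values with the number as a block stand beside results whose call they change. P-values set each difference against the spread between these arrays, which limma draws towards that of probe sets of like level.

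The genes, lists and naming rule (every member, the called chaperone genes, and the 8 most alike and 4 most opposite profiles) were chosen with earlier results of these data known. Genes named beyond that rule, hsfb and hsp18c among them, were chosen after their values were seen. Promoter and protein sequences were not analysed here. Figures used matplotlib 3.10.9.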

Additional observations from a re-analysis of the deposited data

How the results depend on the processing

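Alternatives were 3 other scalings, other pseudocounts and filters, other variance priors, only the 2 groups compared, the replicate block, that block with no filter (added after seeing the data), and leaving out each array. The count of all probe sets called was 140 for GA3 versus control (78 with the brightest 40%, 866 with the replicate block, 673 with the block and no filter, 51 to 112 without 1 array). It was 1629 for UCZ versus control (4282 with poly-A control scaling, 3662 with the block, 3342 with the block and no filter, 552 to 1546 without 1 array), 1474 for GA3 versus UCZ (6708, 3271, 2830, and 541 to 1154), and 931 for the replicates (5235 with poly-A scaling, 393 with no filter, 438 to 1154 without 1 array). Higher and lower calls were 681 and 948 for UCZ versus control, 1119 and 717 with median centring, and 25 and 4257 with poly-A scaling. They were 805 and 669 for GA3 versus UCZ, 617 and 920 with median centring and 6686 and 22 with poly-A scaling. For the replicates they were 395 and 536, and 5204 and 31 with poly-A scaling. For GA3 versus control they were 51 and 89, and 46 and 52 with poly-A scaling.

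Of the 5 heat shock genes, 0 were called in GA3 versus control, 3 with the replicate block, 2 with the block and no filter, and 1, hsp22, with median centring, quantile normalization, no trend or a robust prior; the range without 1 array was 0 to 0. The median UCZ difference of 1.39 was 0.779 with poly-A scaling, 1.05 with a pseudocount of 64 and 1.31 to 1.47 without 1 array. The median of GA3 versus UCZ, −0.825, was −0.0289 with poly-A scaling and −1.16 to −0.649 without 1 array, and poly-A scaling turned hsp18a to 0.539 and hsp22 to 0.207. For the replicates 1 gene was called, 0 with no filter or the brightest 40%, 2 with a robust prior and 0 to 2 without 1 array. Poly-A scaling turned hsp18a to 0.16 and hsp22 to 0.275, and gave 0.591 for hsp101, which without 1 array ranged from −0.0303, without either GA3 array, to 0.336. Of the other chaperones, 0 were called in UCZ versus control, 2 with median centring, 9 with poly-A scaling, 4 with the block, with or without the filter, and 1 with every probe set counted, and 0 in GA3 versus UCZ, 17 with poly-A scaling, 4 with the block and 3 with the block and no filter. With the brightest 40% of probe sets hsp101 alone of the 5 was left to test. With the block hsp18f and hsp101 were still not called in GA3 versus control. The causes were not tested. No detection calls were used, so how far the faint control signals lie above background is not known.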
